A study of Mus musculus and Acomys cahirinus with 25 samples.

Results

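The 10 genes Trem1, Tarm1, Trpm2, Csf3r, Ly6g, Retnlg, Mmp8, Clec4d, Ngp and Camp, which are known from neutrophils, were followed in 25 RNA-seq libraries of mouse wounds and unwounded skin. They were chosen from a list of symbols, with Trem1 and Trpm2 included because they had been seen lower in the knockout dermis, and all 10 symbols were found among the 24500 gene symbols of the count files. The laboratory mice, C57BL/6J as the study's main strain, were wounded through the full skin of the back at 4 weeks of age and sampled at post-wound day 14 (PWD14), when the wound center forms new hair follicles and the wound margin does not. Their libraries came from wild-type (WT) epidermis of the wound center (2) and wound margin (2), from WT dermis of the wound center (5) and wound margin (2), and from knockout (KO) dermis of the wound center (2). The KO mice were K14-Cre-Twist1 animals, in which the KRT14 promoter drives Cre, so that Twist1 is deleted in keratinocytes and not in the dermal cells that the KO libraries came from. The study's controls for the KO were wild type Twist1+/+ mice, and the labels call all WT libraries WT, so whether strain or litter separates the WT libraries cannot be told. The spiny mice (Acomys cahirinus) were WT animals wounded at 8 weeks of age, with unwounded skin taken as day 0 and whole wounds on later days. They gave 6 epidermis libraries (day 0, 1 library; day 14, 2; day 21, 2; day 28, 1) and 6 dermis libraries (day 0, 2; day 14, 1; day 21, 2; day 28, 1). Days are those of the labels, and the study's supplementary sample list gives slightly different days for the wound libraries. Both sexes were used. The study describes its RNA-seq replicates as independent, but the labels do not tie libraries to animals, and p-values measure the spread between these libraries, which may be technical.

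Neutrophils are short-lived granulocytes that reach a wound within hours and are cleared as it closes. Granulopoiesis in the bone marrow is driven by G-CSF, whose receptor is encoded by Csf3r, and the granule genes Ngp, Camp and Mmp8 and the surface antigen gene Ly6g are switched on at successive stages of it, so that some of their transcripts are already low in a circulating cell. The surface receptors among the 10 genes signal through adaptors shared with macrophages: TREM1, TARM1 and CLEC4D (a C-type lectin that binds mycobacterial and fungal glycolipids) use DAP12 or the Fc receptor gamma chain, while TRPM2 is a calcium channel opened by oxidative stress.

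On GRCm38.p6 (mm10) the genes lie on 8 chromosomes, Trem1 at chr17:48232713-48246927, Tarm1 at chr7:3486499-3502754, Trpm2 at chr10:77907722-77969909, Csf3r at chr4:126023441-126044975, Ly6g at chr15:75155261-75159128, Retnlg at chr16:48872608-48874498, Mmp8 at chr9:7558429-7568486, Clec4d at chr6:123262107-123275268, Ngp at chr9:110419808-110423012 and Camp at chr9:109847377-109849456. Their promoters were searched for the core of the PU.1 site, GAGGAA, and for a C/EBP site, TTGCNNAA, on both strands, because PU.1 and the C/EBP proteins are the transcription factors best known from myeloid genes. The windows are the 250 bases before a RefSeq start, which need not be the first base of the span above. The window of Csf3r, chr4:126024409-126024658, lies wholly inside the span of the gene, so its GAGGAA does too. GAGGAA was found for 6 of the 10 genes (Trem1, Tarm1, Csf3r, Ly6g, Mmp8 and Clec4d) and in 23.3% of all 32851 promoter windows. TTGCNNAA was found for 4 genes (Ly6g, Retnlg, Mmp8 and Ngp) and in 9.56% of all windows, and both motifs for Ly6g and Mmp8 and in 2.07% of all windows. A gene with more than 1 window, here Ly6g, was counted once if any window held the motif. The matches are a description of letters. The windows of 5 genes are shown because the results turn on them: Trem1, Tarm1, Trpm2 and Clec4d are 4 of the 5 genes that lay below the WT libraries in the KO dermis, and Mmp8 has both motifs. Trpm2 has neither motif. Bases that RefSeq places inside the gene were left out, which leaves none for Csf3r, the other of the 5 genes below WT. Capitals mark GAGGAA or TTGCNNAA on either strand, with no overlap between the motifs.
Trem1, chr17:48232489-48232712, plus strand: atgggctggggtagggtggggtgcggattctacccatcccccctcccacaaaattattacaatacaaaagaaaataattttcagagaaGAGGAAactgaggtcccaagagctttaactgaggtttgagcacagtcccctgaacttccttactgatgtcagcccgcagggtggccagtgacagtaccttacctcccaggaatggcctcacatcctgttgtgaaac
Tarm1, chr7:3502755-3502874, minus strand: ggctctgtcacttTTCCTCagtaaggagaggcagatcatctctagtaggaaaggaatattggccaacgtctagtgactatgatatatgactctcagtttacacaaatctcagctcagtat
Trpm2, chr10:77969910-77970122, minus strand: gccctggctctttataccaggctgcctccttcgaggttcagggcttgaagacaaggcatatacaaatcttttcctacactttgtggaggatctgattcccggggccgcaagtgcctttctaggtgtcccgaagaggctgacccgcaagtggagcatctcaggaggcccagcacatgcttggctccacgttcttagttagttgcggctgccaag
Clec4d, chr6:123261857-123262106, plus strand: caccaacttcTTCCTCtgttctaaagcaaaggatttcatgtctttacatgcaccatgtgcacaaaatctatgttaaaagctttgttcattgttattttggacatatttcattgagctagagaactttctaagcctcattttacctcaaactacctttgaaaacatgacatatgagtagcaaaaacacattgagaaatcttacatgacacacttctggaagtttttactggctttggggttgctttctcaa
Mmp8, chr9:7558179-7558428, plus strand: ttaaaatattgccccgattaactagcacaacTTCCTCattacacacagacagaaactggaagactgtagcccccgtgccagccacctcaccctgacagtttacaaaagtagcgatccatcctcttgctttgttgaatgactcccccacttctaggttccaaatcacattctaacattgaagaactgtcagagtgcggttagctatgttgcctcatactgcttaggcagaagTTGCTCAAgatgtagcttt

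A read of these genes is weighed against depth as CPM, counts scaled to the same total of reads on genes in every library. Gene reads ranged from 19413261 to 86532134 in the laboratory mouse and from 5669760 to 34751956 in the spiny mouse, and 3 counts, taken as the smallest detectable amount, stood for 0.0347 to 0.155 CPM and 0.0863 to 0.529 CPM. These limits cover counting error only. One WT dermis center library, replicate 4, stood apart: it was the highest of the 5 WT dermis center libraries in 9 of the 10 genes, and in 19.4% of the 13453 genes whose mean there reached 1 CPM. The KO library of replicate 2 also stood apart, with 12075 genes holding a count against 13555 to 15753 in the other 8 dermis libraries, and with 34511 summed CPM of 9 keratinocyte markers against 9.82 to 4045 in the others. The 10 genes were not equal as neutrophil markers in these wounds. Ngp, a granule protein gene of maturing neutrophils, had no count in any of the 13 laboratory mouse libraries. Camp, which encodes the antimicrobial peptide cathelicidin, had over 3 counts in 1 laboratory mouse library, and so did Ly6g, the surface antigen that defines mouse neutrophils, whose reads can be shared with close relatives of the Ly6 family. Clec4d and Csf3r together made up 78.3% to 100% of the summed CPM of the 10 genes in the laboratory mouse dermis, so the sum there is mostly the level of these 2 genes.

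In the laboratory mouse, the summed level of the 10 genes was higher in every dermis library than in every epidermis library. Their summed level was 181 ± 169 CPM (SD, n = 5) in WT dermis center, 69.5 ± 22.7 CPM (SD, n = 2) in WT dermis margin and 53.3 ± 22.8 CPM (SD, n = 2) in KO dermis center, while in epidermis it was 3.10 ± 0.469 CPM (SD, n = 2) in the center and 1.38 ± 1.34 CPM (SD, n = 2) in the margin. The dermis libraries were read from 1 end and the epidermis libraries from both ends, so layer and read type cannot be told apart in this species. In bulk tissue, fewer cells of a type and less RNA per cell cannot be told apart either. Between genes, levels were compared per kilobase of exon in WT dermis center. Clec4d was highest with 49.9 ± 36.3 CPM per kb (SD, n = 5) and lay between 30.0 and 115. Csf3r followed with 18.7 ± 19.8 CPM per kb and lay between 4.25 and 53.0, so the ranges of these neighbours overlapped. Trem1 (4.50 ± 7.25), Retnlg (4.01 ± 7.97), Tarm1 (2.95 ± 2.87) and Mmp8 (1.99 ± 1.84 CPM per kb) came next and did not differ beyond their spread. Trpm2 (0.565 ± 0.360), Ly6g (0.268 ± 0.569) and Camp (0.146 ± 0.327 CPM per kb) were lower, their ranges also overlapped, and Ngp was at 0.

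**Figure D1:**
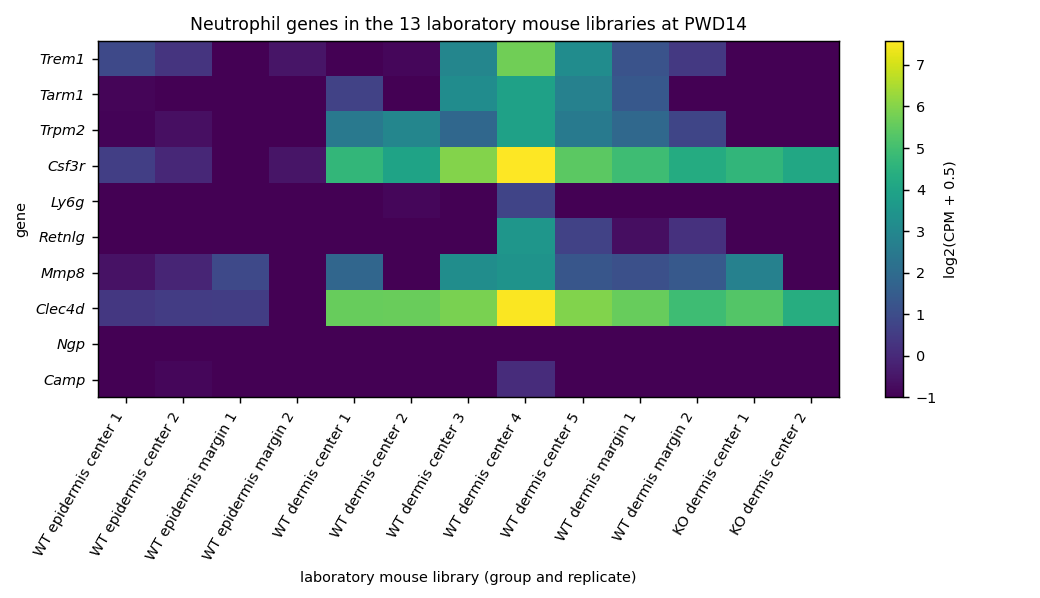
Level of each gene (rows) in each laboratory mouse library (columns), as log2(CPM + 0.5) from dark (no read) to yellow (highest). Clec4d and Csf3r are bright across the 9 dermis columns, Ngp is dark in all 13, and WT dermis center replicate 4 is the brightest column, with 191 CPM of Csf3r.

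The receptors carried most of the reads in WT dermis center, and they did so unevenly. Trem1, an amplifier of inflammatory signals, was at 0, 0.0515, 7.09, 51.7 and 8.50 CPM in replicates 1 to 5. Replicates 1 and 2, which the study set against the wound margin, were thus at or under 1 read, and replicates 3 to 5, which it set against the KO, were all higher. Tarm1, an activating receptor of myeloid cells, was at 1.13, 0, 8.46, 14.7 and 6.26 CPM. Csf3r was at 25.2, 15.4, 62.8, 191 and 42.6 CPM, again with replicates 3 to 5 above replicates 1 and 2. Clec4d was at 48.0, 48.3, 57.7, 183 and 62.0 CPM, where the first pair and replicate 3 were closer together. Trpm2 did not follow that split, with 5.03, 7.11, 3.15, 14.7 and 5.24 CPM. Of the granule and secreted proteins, the collagenase gene Mmp8 was at 3.08, 0, 8.81, 10.2 and 1.97 CPM, and the resistin-like gene Retnlg at 0, 0, 0, 10.8 and 1.10 CPM. Retnlg was therefore detected in replicates 4 and 5 alone.

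Wound center and wound margin were compared to ask whether the genes differed between the region that forms hair follicles and the region that does not. In dermis no gene passed the test. The comparison took WT dermis center replicates 1 and 2 and the 2 margin libraries, and 6 of the 10 genes had enough reads to be tested. None of the 6 had an FDR under 0.05 with edgeR's quasi-likelihood test, DESeq2 or the quasi-likelihood test of edgeR 3, and 1 had an unadjusted p-value under 0.05, beside 0.85% of all 14698 genes with an FDR under 0.05. That gene was Trem1, at 1.77 and 0.856 CPM in the margin against 0 and 1 read in the center (FDR = 0.269). The pooled reads of the margin were 54.8 times those of the center per gene read, with a 95% exact interval of 9.47 to 2200, which covers counting error only and not the spread between libraries, as do the other intervals of read ratios given here. Csf3r was at 29.5 and 19.2 CPM in the margin (log2 fold change, center minus margin, -0.16, SE 0.44, FDR = 0.911), and Clec4d at 47.2 and 29.4 CPM (0.41, SE 0.32, FDR = 0.60), so the margin values overlapped or neighboured those of the center. Trpm2 was at 3.23 and 1.22 CPM in the margin, both under the 5.03 and 7.11 CPM of the center, with a log2 fold change of 1.51 (SE 0.87, FDR = 0.460). Mmp8 (1.64 and 2.16 CPM in the margin, FDR = 0.982) and Tarm1 (2.07 and 0 CPM in the margin, FDR = 0.896) overlapped between the regions. The direction depended on which center libraries were used. With all 5, the log2 fold change of Trem1 turned from -5.39 to 3.47, and those of Tarm1 (2.72), Csf3r (1.63) and Mmp8 (1.55) also turned positive, still with no FDR under 0.05.

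In epidermis, the genes were present at about 1 CPM or less in both regions. Trem1 was at 1.35 and 0.724 CPM in the center and at 0 and 0.208 CPM in the margin, and Csf3r at 1.02 and 0.470 CPM against 0 and 0.208 CPM. Both center libraries were above both margin libraries for these 2 genes. Their log2 fold changes were 2.77 (SE 1.01, FDR = 0.172) and 2.30 (SE 1.08, FDR = 0.244). Clec4d was at 0.825 and 0.941 CPM in the center and 0.964 and 0.0116 CPM in the margin (log2 fold change 1.43, SE 1.29, FDR = 0.525), and Mmp8 at 0.162 and 0.434 against 1.36 and 0 CPM (-0.67, SE 1.70, FDR = 0.831), so both overlapped. None of the 4 genes tested had an FDR under 0.05 with edgeR's quasi-likelihood test, DESeq2 or edgeR 3, and 1 had an unadjusted p-value under 0.05, beside 1.24% of 14165 genes with an FDR under 0.05. Without margin replicate 1 the count was 1 (Clec4d, log2 fold change 6.01), and without margin replicate 2 it was 2 (Trem1, 8.79, higher, and Mmp8, -2.40, lower), where the lone margin library is assumed to vary like the center. The other 6 genes held 0 to 8 reads per epidermis library. Whether the difference between regions itself differed between the layers was tested as an interaction in the 8 libraries. None of 6 genes had an FDR under 0.05 with any of the 3 tests, 1 had an unadjusted p-value under 0.05 (Trem1, FDR = 0.120), and 3.48% of 15531 genes had an FDR under 0.05.

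Some genes of the same pathways differed between the regions, beside 1.24% of all genes tested in epidermis, 0.85% in dermis and 3.48% in the interaction. Of 12 further granule protein genes, 6 were tested in epidermis, and 1 of them was higher in the center. It was Mmp9, the gelatinase of neutrophils that keratinocytes and macrophages also make, at 50.8 and 56.8 CPM in the center and 10.1 and 10.2 CPM in the margin (log2 fold change 2.31, SE 0.24, FDR = 0.0367). In dermis, 0 of the 9 tested granule protein genes had an FDR under 0.05 with edgeR's quasi-likelihood test, and 2 had an unadjusted p-value under 0.05. Of 6 leukocyte adhesion genes tested there, 1 was higher in the center: Itgb2, the common chain of the leukocyte integrins, at 120 and 178 CPM against 58.7 and 56.1 CPM (log2 fold change 1.46, SE 0.24, FDR = 0.0169). The calprotectin genes S100a8 and S100a9, which keratinocytes of wounds also make, differed between the layers in the change from margin to center. In the interaction, both passed (2 of 2), as did 1 of 9 surface receptors, 1 of 6 NADPH oxidase genes and 3 of 9 keratinocyte markers. On the log2 scale the interaction was 5.95 (SE 1.07, FDR = 0.0114) for S100a8 and 6.41 (SE 1.09, FDR = 0.00909) for S100a9. S100a8 was at 85.7 and 154 CPM in epidermis center against 24.4 and 9.22 in epidermis margin, and at 0.408 and 3.30 CPM in dermis center against 24.0 and 6.98 in dermis margin. Keratinocyte markers summed to 1848 and 4045 CPM in dermis margin and to 570 and 399 CPM in dermis center replicates 1 and 2, with 4 of 9 lower in the center and 9 of 9 at an unadjusted p-value under 0.05, and their part in the values of S100a8 and S100a9 was not tested. The median log2 fold change of the 10 genes' tested members was 1.86 in epidermis and -0.14 in dermis, beside -0.02 and -0.03 over all genes.

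The KO was set against WT to ask what deleting Twist1 in the epidermis does to the dermis beneath. In the KO dermis, Trem1, Tarm1 and Trpm2 had no read in either library. Because 2 of the 10 genes were included for this contrast, the values are a description and carry no test. Fold values set the mean of WT dermis center replicates 3 to 5 against a limit of 3 counts in the KO. Trem1 was at least 159-fold lower in the KO, Tarm1 at least 69.4-fold and Trpm2 at least 54.4-fold. That limit covers counting error only, and the WT mean of Trem1 was 22.4 ± 25.4 CPM (SD, n = 3). KO replicate 2 held 1125 genes with 1 to 99 counts, against 2167 to 3949 in the other 8 dermis libraries. In it 34.4% of reads were set aside for low alignment quality, against 23.7% to 28.3%. The part of this in its zeros was not tested. Csf3r was at 24.4 and 17.1 CPM in the KO and at 62.8, 191 and 42.6 CPM in WT, a mean of 20.8 ± 5.11 (SD, n = 2) against 98.8 ± 80.6 CPM (SD, n = 3). Clec4d was at 38.7 and 20.0 CPM against 57.7, 183 and 62.0 CPM, a mean of 29.4 ± 13.2 (SD, n = 2) against 101 ± 71.2 CPM (SD, n = 3). These 5 genes, of 7 with enough reads, lay below all 3 WT libraries in both KO libraries, where 16.7% of the 14163 genes tested did. Trem1 and Trpm2 had been included for being lower here, so they count by choice, which leaves Tarm1, Csf3r and Clec4d. Mmp8 overlapped, with 6.40 and 0 CPM in the KO. Retnlg, Ly6g and Camp had no read in the KO, but each was also at 0 in at least 1 WT library, and Ngp was at 0 throughout.

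The WT libraries chosen for this contrast mattered. Set against all 5 WT dermis center libraries, 2 genes, Trpm2 and Clec4d, lay below every one in both KO libraries, as did 8.32% of the 13642 genes that reached a mean of 1 CPM. Of these 2, Trpm2 had been included for being lower in the KO. The other WT libraries, replicates 1 and 2, had 0 and 0.0515 CPM of Trem1, at or within 1 read of the KO, and 25.2 and 15.4 CPM of Csf3r, on either side of its KO values. Without WT replicate 4, Trem1 was at least 55.2-fold lower in the KO, Tarm1 at least 52.1-fold and Trpm2 at least 29.7-fold. The mean of Csf3r in WT was then 52.7 CPM instead of 98.8 and that of Clec4d 59.9 instead of 101. The count of genes below all WT libraries was 5 without WT replicate 4 and 5 without KO replicate 2. Leaving out a library can only keep or raise this count, so neither value checks it. Markers of other cell types were counted in the same way. Of the 13642 genes, 16.9% lay below all 3 of WT replicates 3 to 5 in both KO libraries, and 1805 lay above all 3. Of the 7 fibroblast markers, 5 lay below all 3 WT libraries in both KO libraries and 3 below all 5, and their summed level was 108712 and 71784 CPM in the KO and 92230 to 116322 CPM in WT replicates 3 to 5. Of 3 red cell markers measured 2 lay below all 3, and of 5 mast cell markers 3 lay above. Keratinocyte markers were at 948 and 34511 summed CPM in the KO and at 9.82 to 57.2 in WT replicates 3 to 5, with 6 of the 8 markers measured above all 3. The 11 macrophage and monocyte markers summed to 2920 and 2389 CPM against 2504 to 3545, with 2 below all 3 WT libraries and 1 above. The 5 pan-leukocyte markers summed to 398 and 517 CPM against 445 to 627, with 2 below all 3. The part of these in the difference was not tested. Twist1 itself was at 73.4 and 44.0 CPM in the KO dermis and at 57.7, 36.3 and 104.6 CPM in WT replicates 3 to 5, which checks nothing, since the deletion is in keratinocytes.

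**Figure D2:**
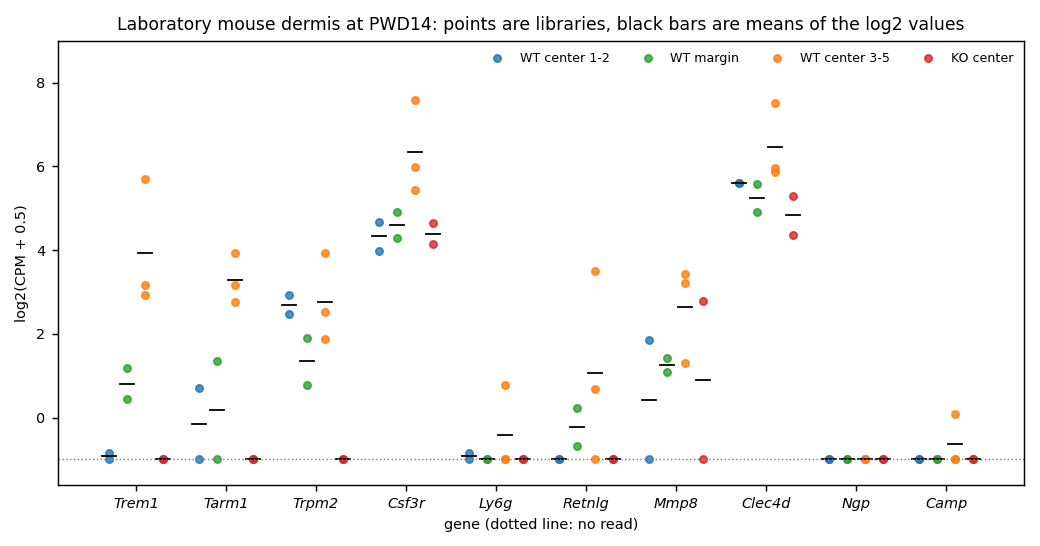
Level of the 10 genes in the 9 laboratory mouse dermis libraries as log2(CPM + 0.5), with WT center replicates 1 and 2 in blue, WT margin in green, WT center replicates 3 to 5 in orange and KO center in red, and black bars at the mean of the log2 values. For Trem1, the KO points lie on the line of no reads and the blue points on it or just above (0 and 0.0515 CPM). Its orange points lie higher, with up to 51.7 CPM.

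Lists of other neutrophil genes differed in how many lay below the WT libraries in the KO dermis. Of all 13642 genes that reached a mean of 1 CPM, 16.9% lay below all 3 and 8.32% below all 5. The counts of granule, attractant and receptor partner genes were near the first share, and fibroblast markers reached 5 of 7. These counts are a description with no test. Of the granule protein genes, 2 of 7 were below all 3 and 1 below all 5. Of the 11 surface receptor genes, 10 reached a mean of 1 CPM, and 5 of these were below all 3 WT libraries in both KO libraries and 3 below all 5. Fpr1, the receptor for bacterial formyl peptides, was at 0.471 and 0 CPM in the KO, at 2.62, 15.0 and 6.07 CPM in WT replicates 3 to 5 and at 3.35 and 9.58 CPM in replicates 1 and 2. S100a8 and S100a9 were both below all 3 (2 of 2) and neither was below all 5. Among the attractants and growth factors, 2 of 9 were below all 3 and none below all 5. One of the genes with the largest ratio there was Il6, a cytokine that sustains acute inflammation, at 0 in both KO libraries and at 4.19, 1.01 and 0 CPM in WT replicates 3 to 5, so it overlapped. Padi4, which citrullinates histones when neutrophils release their chromatin, was at 0 and 0 against 0, 0.907 and 1.75 CPM, and Wfdc21 at 0 and 88.6 against 1.5, 1.56 and 0 CPM. The 6 genes of the phagocyte NADPH oxidase, which makes superoxide in neutrophils and macrophages, were all measured, and none lay below all 3. Of the 7 partners of the receptors, which include the adaptors Tyrobp (DAP12) and Fcer1g, 1 did.

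**Figure D3:**
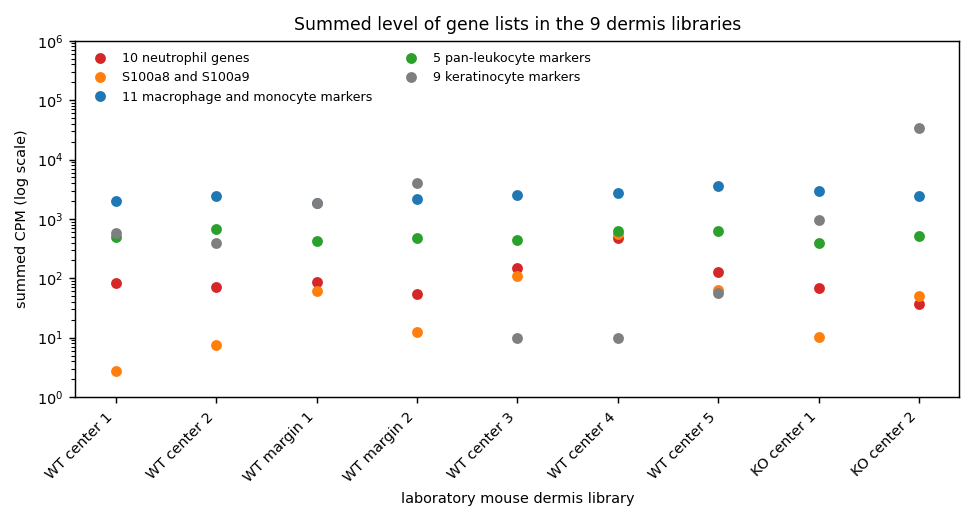
Summed CPM (log axis) of 5 gene lists in the 9 laboratory mouse dermis libraries, 1 point per list and library. The 10 neutrophil genes range from 37.2 to 478 CPM and S100a8 with S100a9 from 2.76 to 567 CPM, both highest in WT center replicate 4, while the macrophage and monocyte markers stay between 1832 and 3545 CPM and the keratinocyte markers are highest in KO replicate 2.

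Epidermis and dermis of the same region were compared to place the genes in a layer. In the wound margin, 3 genes were lower in epidermis. Trpm2 had no read in either epidermis library against 3.23 and 1.22 CPM in dermis, at least 26.1-fold lower (FDR = 0.0140). Csf3r was at 0 and 0.208 CPM against 29.5 and 19.2 CPM, a log2 fold change of -6.59 (SE 0.90, FDR = 0.000136). Clec4d was at 0.964 and 0.0116 CPM against 47.2 and 29.4 CPM, a log2 fold change of -6.05 (SE 0.97, FDR = 0.000522). In none of these 3 did the layers overlap. Trem1 (log2 fold change -2.38, SE 1.24, FDR = 0.135) and Mmp8 (-1.17, SE 1.33, FDR = 0.499) did not pass, so the count was 3 of 5 tested, beside 47.7% of 14964 genes with an FDR under 0.05 and 26.8% lower in epidermis. Trpm2 lost its FDR without epidermis margin replicate 2 (FDR = 0.100) and without dermis margin replicate 1 (FDR = 0.202).

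In the wound center, 3 genes were again lower in epidermis, Trpm2 (log2 fold change -5.37, SE 0.88, FDR = 0.00359), Csf3r (-3.97, SE 0.58, FDR = 0.00361) and Clec4d (-4.99, SE 0.29, FDR = 0.000263), and their values did not overlap between the layers. Trem1 went the other way, with 1.35 and 0.724 CPM in epidermis and 0 and 0.0515 CPM in dermis replicates 1 and 2 (log2 fold change 5.99, SE 1.82, FDR = 0.0425), a ratio of pooled reads of 44.4 with a 95% exact interval of 7.84 to 1769. That call rested on those 2 dermis libraries. With all 5 WT dermis center libraries the log2 fold change of Trem1 was -2.95 (FDR = 0.196), and without epidermis replicate 1 or 2 its FDR was 0.475 or 0.297. Mmp8, at 0.162 and 0.434 CPM in epidermis, did not pass (-1.69, SE 1.56, FDR = 0.394). The TMM scaling factors moved the median log2 fold change by 0.79 in the center and 0.84 in the margin, and no direction changed without them. The count was thus 4 of 5 tested, beside 56.1% of 14329 genes with an FDR under 0.05 and 26.8% lower in epidermis, and it fell to 2 without either epidermis replicate, where Trpm2 did not pass either (FDR = 0.120 and 0.0742). Replicate 2 of the dermis set the value of Mmp8, which passed without it (log2 fold change -2.64, FDR = 0.0129).

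Many other leukocyte genes were lower in epidermis than in dermis, but not all lists were. In the center, where 26.8% of all genes were lower in epidermis, 6 of 6 genes of the phagocyte NADPH oxidase, 6 of 9 surface receptors and 4 of 6 adhesion genes tested were lower in epidermis, beside 2 surface receptors that were higher. The markers of macrophages and monocytes (9 of 11 lower, 1 higher) and of all leukocytes (5 of 5 lower) lay the same way, as did those of fibroblasts (6 of 7 lower) and mast cells (5 of 5 lower). Of the granule protein genes 2 of 7 were higher and 2 lower, of the attractants and growth factors 1 of 10 was higher and 2 lower, and of the T cell markers 1 of 5 was higher and none lower. Selp, the endothelial selectin on which neutrophils roll, had 1 and 0 reads in epidermis center and was at 9.38 and 5.0 CPM in dermis, and Cxcl5, an attractant of neutrophils, was at 0 in both epidermis libraries against 20.4 and 5.56 CPM. The reverse was seen for S100a8 (85.7 and 154 CPM in epidermis against 0.408 and 3.30 CPM, FDR = 0.00223) and Wfdc21 (348 and 295 CPM against 0 and 3.09 CPM, FDR = 0.00330). In the margin, Selp, Fpr2, Chil3 and Cxcl5 had no read in epidermis, with 24.2 and 11.8 CPM of Selp, 7.71 and 2.48 CPM of Fpr2, 7.84 and 1.98 CPM of Chil3 and 6.80 and 1.44 CPM of Cxcl5 in dermis. Cxcr2, the receptor through which most attractants act on neutrophils, was in both layers, at 15.0 and 23.3 CPM in epidermis center and 0.997 and 4.48 CPM in dermis center replicates 1 and 2.

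**Figure D4:**
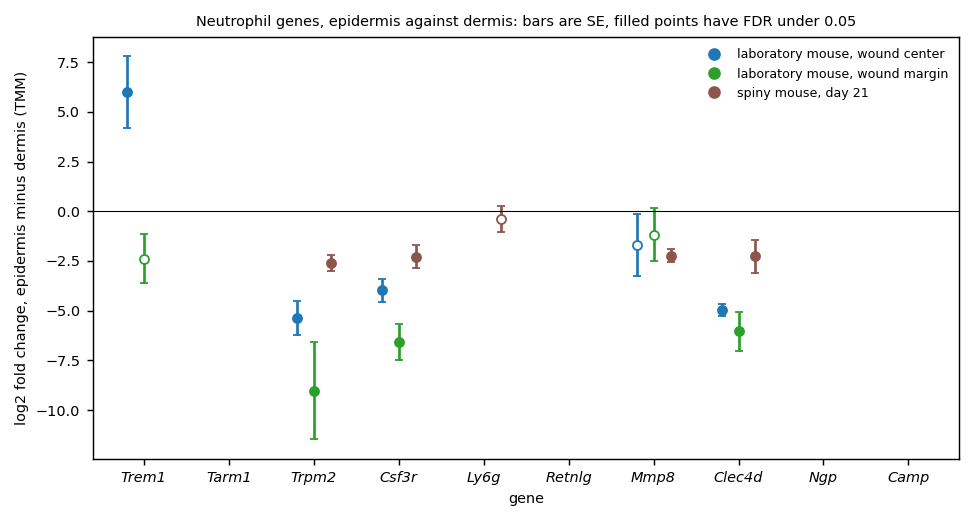
Log2 fold change of epidermis minus dermis for the genes tested in the laboratory mouse wound center (blue) and margin (green) and in the spiny mouse at day 21 (brown), with bars for SE and filled points for an FDR under 0.05. Csf3r, Clec4d and Trpm2 lie below 0 in all 3 comparisons, and Trem1 lies above 0 in the laboratory mouse wound center, at 5.99. Trpm2 had no epidermis read in the margin, so that point gives no size.

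In the spiny mouse, reads of another genus were aligned to the laboratory mouse genome, so its levels were not set against those of the laboratory mouse. Its receptor genes Clec4d, Csf3r and Trem1 were highest in the single dermis library of day 14, and Mmp8 was lowest there. Clec4d was at 0.353 and 0.441 CPM in unwounded dermis (day 0), 7.01 at day 14, 1.05 and 0.633 at day 21 and 0.390 at day 28. Its day 0 values are 2 and 3 reads, at or under the limit of 3 counts. Csf3r was at 0.705 and 2.35 CPM at day 0, 5.06 at day 14, 2.37 and 1.38 at day 21 and 0.683 at day 28. Trem1 was at 0.529 and 0.147 CPM (3 and 1 reads, also at or under that limit), then 3.06, then 0.821 and 0.317, and had no read at day 28. For these 3 receptors day 14 was the highest of the 6 dermis libraries, but with 1 library it has no replicate check. The share of all genes that were highest in that library is not given here, so the peak is a description. Trpm2 was at 0.882 and 2.35 CPM at day 0, 3.83 at day 14, 4.10 and 3.08 at day 21 and 1.46 at day 28, so day 14 lay within the range of day 21. Mmp8 went the other way, with 12.0 and 16.9 CPM at day 0, 3.71 at day 14, 12.4 and 9.52 at day 21 and 11.02 at day 28, and its lowest value fell on the day of the receptors' highest. Camp was at 1.23 and 1.76 CPM at day 0, 0.706 at day 14, 0.456 and 0.173 at day 21 and 0.293 at day 28. It was thus higher in both unwounded libraries than in each of the 4 wound libraries. Ly6g stayed between 0.147 and 0.882 CPM, Retnlg had up to 4 reads per library, Ngp had 4 reads in 1 unwounded library and 2 at day 14, and Tarm1 had 1 read in all.

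Days 21 and 0 were the dermis days with 2 libraries each. Of the 4 genes tested, none had an FDR under 0.05 with edgeR's quasi-likelihood test, DESeq2 or edgeR 3, and 1 had an unadjusted p-value under 0.05, beside 26.2% of 14481 genes with an FDR under 0.05. That gene was Camp (log2 fold change, day 21 minus day 0, -2.39, SE 0.85, FDR = 0.0693), and with all spiny mouse libraries in 1 fit its FDR was 0.0467. Trpm2 (1.05, SE 0.59, FDR = 0.215), Mmp8 (-0.50, SE 0.36, FDR = 0.327) and Csf3r (0.19, SE 0.69, FDR = 0.862) did not pass. Other genes of the pathway changed over this time. Of 11 attractants and growth factors tested, 2 were higher and 5 lower at day 21, Csf3, which encodes G-CSF, among the lower ones, from 4.76 and 1.47 CPM to 0.182 and 0.201 CPM (log2 fold change -4.10, SE 0.88, FDR = 0.0119). Il1r2, the decoy receptor of interleukin-1, fell from 302 and 169 CPM to 5.75 and 5.76 CPM (FDR = 0.000284), and the granule gene Lcn2 from 7.76 and 7.05 to 0.867 and 0.259 CPM (FDR = 0.00487). Clec4e, the partner of Clec4d in the same receptor complex, had no read at day 0 and was at 1.19 and 0.892 CPM at day 21 (FDR = 0.0433). Keratinocyte markers summed to 5450 and 4061 CPM at day 0 and 506 and 946 CPM at day 21, with 7 of 9 tested lower, and mast cell markers to 5331 to 5875 CPM and 478 to 653 CPM, with 5 of 5 lower. Their part in these differences was not tested. The medians were -0.15 for the 4 genes tested and 0.03 for all genes.

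**Figure D5:**
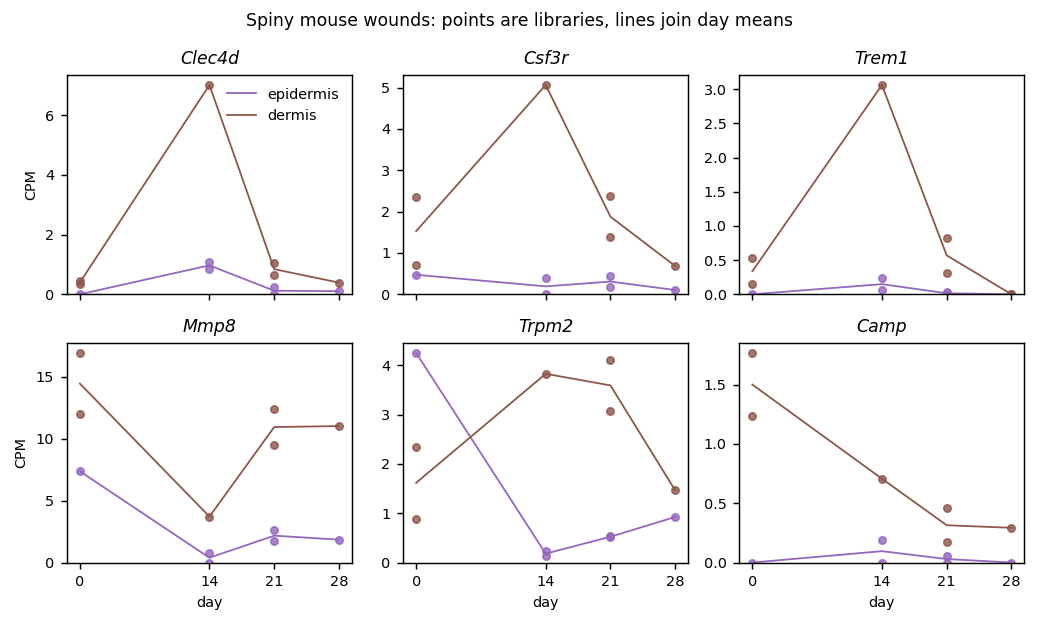
CPM against day (0, 14, 21 and 28) for 6 of the genes in spiny mouse epidermis (purple) and dermis (brown), with a point per library and lines through the day means. Clec4d, Csf3r and Trem1 peak in the dermis library of day 14, at 7.01, 5.06 and 3.06 CPM, where Mmp8 is lowest, at 3.71 CPM.

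In spiny mouse epidermis the 10 genes summed to 12.2 CPM in the unwounded library, nearly all of it Mmp8 (7.36 CPM) and Trpm2 (4.25 CPM), and to between 2.09 and 3.83 CPM in the 5 wound libraries. Mmp8 was at 0.775 and 0 CPM at day 14, 1.71 and 2.63 at day 21 and 1.85 at day 28, and Trpm2 at 0.233 and 0.128, 0.532 and 0.514, and 0.924 CPM. Each wound library was below the unwounded one for both genes, which has 1 library and no replicate check. Clec4d had no read at day 0, was at 0.853 and 1.08 CPM at day 14, 0.236 and 0 at day 21 and 0.103 at day 28. It was higher at day 14 than at day 21, with a log2 fold change of 3.15 (SE 0.87, FDR = 0.0121). Mmp8 did not pass (-1.995, SE 0.84, FDR = 0.0700). The count was 1 of 2 tested, beside 46.6% of 12889 genes with an FDR under 0.05. It was 0 without day 21 replicate 2 (Clec4d FDR = 0.101) and 2 without day 14 replicate 1, where Mmp8 also passed with a log2 fold change of -8.43. Without the TMM factors, which moved the median log2 fold change here by 0.55, Mmp8 passed as well (-2.54, FDR = 0.0209). Of the 7 receptor partners tested, 3 were higher at day 14 and 2 lower. Fcer1g, the gamma chain with which CLEC4D signals, was among the higher ones, with a log2 fold change of 2.30 (SE 0.30, FDR = 0.000180). Pglyrp1, a granule peptidoglycan receptor that is also a ligand of TREM1, was at 2.17 and 1.47 CPM at day 14 and 0.384 and 0.285 CPM at day 21 (FDR = 0.00294). S100a9, for which the keratinocytes of the wound are a known source, was at 2503 and 1511 CPM against 407 and 180 CPM (FDR = 8.9e-05), and Spi1, which encodes PU.1, at 10.9 and 11.4 against 4.02 and 2.17 CPM (FDR = 0.000297). Ltf, the lactoferrin gene, was at 3.18 and 1.91 against 0.473 and 0 CPM (FDR = 0.00220). Of the 10 macrophage and monocyte markers tested, 4 were higher and 3 lower, and of the pan-leukocyte markers 1 of 4 was higher and 3 lower. Markers of red cells (3 of 4), platelets (2 of 2) and T cells (3 of 5) were higher at day 14, with none lower. The part of these was not tested. The median was 0.58 for the 2 genes tested and -0.04 for all genes.

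At day 21, where each layer had 2 libraries of the same read type, 4 of the 5 genes tested were lower in spiny mouse epidermis than in dermis, beside 62.9% of 14966 genes with an FDR under 0.05 and 33.5% lower in epidermis. Mmp8 was at 1.71 and 2.63 CPM in epidermis against 12.4 and 9.52 CPM in dermis (log2 fold change -2.24, SE 0.33, FDR = 0.000804). Trpm2 was at 0.532 and 0.514 against 4.10 and 3.08 CPM (-2.62, SE 0.41, FDR = 0.00111), and Csf3r at 0.443 and 0.171 against 2.37 and 1.38 CPM (-2.28, SE 0.57, FDR = 0.0102). For these 3 genes the layers did not overlap. Clec4d, at 0.236 and 0 against 1.05 and 0.633 CPM, was close to the threshold (-2.26, SE 0.83, FDR = 0.0445) and did not pass with DESeq2 (FDR = 0.0932), with edgeR 3 (FDR = 0.0526), without epidermis replicate 2 (FDR = 0.176) or without dermis replicate 1 (FDR = 0.0828). Ly6g was at 0.236 and 0.514 against 0.684 and 0.345 CPM and overlapped (-0.39, SE 0.66, FDR = 0.632). Trem1 had 1 read in epidermis and 29 in dermis, a ratio of 26.3 per gene read with a 95% exact interval of 4.36 to 1073, too few for the test. Of the 6 NADPH oxidase genes, 5 were lower in epidermis and 1 higher, with Cybb, its catalytic subunit, at 0.798 and 0.0571 against 24.0 and 19.4 CPM (FDR = 0.000260). Cebpe, the transcription factor of late granulocytes, was at 0.0591 and 0.0571 against 3.19 and 2.59 CPM (FDR = 9.0e-05). Of the 5 myeloid transcription factors tested, 3 were lower in epidermis and 2 higher. Surface receptors (3 of 9 lower, 2 higher) and granule protein genes (3 of 8 lower, 2 higher) were also mixed. Of 10 attractants and growth factors, 2 were lower and 5 higher. S100a9 (407 and 180 against 6.48 and 5.18 CPM, FDR = 4.2e-05) and Il1a (55.8 and 48.8 against 0.684 and 1.18 CPM, FDR = 1.1e-05), an alarm cytokine stored in keratinocytes, were higher in epidermis. The macrophage and monocyte markers were lower in epidermis in 9 of 10 tested.

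Genes whose level followed the 10 genes most closely were sought across the 13 laboratory mouse libraries, by Pearson's correlation of log2(CPM + 0.5) with the mean of the 10 genes, among 13963 genes whose mean there reached 1 CPM. The highest were Rasl10b (r = 0.95), Saa3 (0.95), Ccnjl (0.94), Lrrn2 (0.94), Hp (0.94), Cxcl5 (0.93), Emb (0.93), Shisa4 (0.93), Thbs1 (0.92) and Lrp1 (0.92). Saa3 and Hp encode the acute phase proteins serum amyloid A3 and haptoglobin, Thbs1 encodes thrombospondin-1, and Lrp1 a scavenger receptor of macrophages and fibroblasts. The 13 libraries fall into 2 layers, so these values also reflect layer and read type. Within the 9 dermis libraries r lay between 0.86 and 0.96, and without WT dermis center replicate 4 between 0.76 and 0.90, highest for Saa3. The values are a description of libraries that share tissue and depth.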

How the data were processed

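RNA of laboratory mouse wound layers and of spiny mouse wound and unwounded skin layers was sequenced after polyA selection. The authors deposited raw read counts per RefSeq gene, 1 table per library, made with STAR and HTSeq 0.6.0 on mm10. The STAR release is 2.4.1d in the submitters' notes. Each table holds 24500 symbols and 5 summary lines, which were left out of library sizes. Epidermis libraries of the laboratory mouse were paired-end and its dermis libraries single-end, both strand-specific, and the spiny mouse libraries single-end without strand, so antisense reads cannot be told apart there.

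Groups came from the labels, and replicate numbers are only names. The 10 genes and all lists were chosen with earlier results of these data known. Genes were fitted over the whole table with edgeR 4.0.16 (TMM factors, quasi-likelihood test, filterByExpr, Benjamini-Hochberg FDR, threshold 0.05) in R 4.3.3, with DESeq2 1.42.0 and the edgeR 3 form of the test as alternatives. The script was tested on simulated data. All 10 genes were followed in every comparison. From the other lists at most 4 genes a comparison were named, those with the largest absolute log2 fold change past the threshold (with no test, the largest change), and Cxcr2 and Fcer1g were added after their values were seen. Intervals of read ratios are exact binomial. Promoters are from RefSeq, exon lengths from GENCODE.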

Additional observations from a re-analysis of the deposited data

Results flagged for a closer look

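In the group of 5 WT dermis center libraries, replicate 4 stood far above the other 4 by Dixon's test for 6 of the 9 genes that had a read there. Trem1 was at 51.7 CPM, with the nearest library at 8.50 CPM, and Csf3r at 191 CPM, with the nearest at 62.8 CPM. Clec4d was at 183 CPM against 62.0 CPM, and Retnlg at 10.8 CPM against 1.10 CPM. Ly6g was at 1.21 CPM against 0.0515 CPM, and Camp at 0.554 CPM against 0. Chance alone marks about 1 in 20 such groups where values follow a normal distribution, which CPM with many zeros need not do. Camp had a read in 1 of the 5 libraries, so it would be marked whatever its size. The 6 genes were read in the same library, so they are not independent. S100a8 and S100a9 summed to 567 CPM in replicate 4 and to 2.76 to 108 CPM in the other 4 libraries. The 11 macrophage and monocyte markers summed to 2765 CPM in it, within the 2004 to 3545 CPM of the others. The part of these in the difference was not tested.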

How the results depend on the processing

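No paired analysis was possible because the labels carry no replicate numbers. Apart from leaving out libraries, 57 of 62 alternative counts and summed levels and 226 alternative values of single genes kept their direction and side of the threshold, where 6 turned, 5 lost and 2 gained a call. With all 5 WT dermis center libraries, center minus margin turned to 3.47 for Trem1, 2.72 for Tarm1, 1.63 for Csf3r and 1.55 for Mmp8, epidermis minus dermis of the center to -2.95 for Trem1 and its interaction to -0.52, and the count of genes below WT in the KO went from 5 to 2. The count was 2 in spiny mouse epidermis without TMM factors and 1 in spiny mouse dermis with all its libraries in 1 fit. With TMM-scaled CPM the summed level was 4.44 in epidermis center and 3.04 in spiny mouse epidermis at day 14. Trem1 in the center lost its FDR without TMM factors (0.07998), without the filter on low counts (0.0573) and with all laboratory mouse libraries in 1 fit (0.121). The cause was not tested. Leaving out 1 library, the count of genes past the threshold ranged from 0 to 2 in epidermis and 0 to 0 in dermis between center and margin, 0 to 2 in spiny mouse epidermis, 0 to 0 in its dermis, 2 to 6 and 2 to 4 between layers of the center and margin, 3 to 5 between spiny mouse layers, 0 to 0 in the interaction and 5 to 6 in the KO. Directions turned within these ranges of log2 fold change: Clec4d -0.29 to 6.01 and Mmp8 -2.40 to 7.31 in epidermis, Csf3r -0.62 to 0.23, Mmp8 -8.34 to 0.83 and Tarm1 -7.51 to 6.74 in dermis, Csf3r -0.31 to 1.15 in spiny mouse dermis, Mmp8 -2.64 to 6.92 and -8.93 to 0.34 between layers of center and margin, Ly6g -0.86 to 0.13 between spiny mouse layers, and Clec4d -0.53 to 5.64, Mmp8 -2.11 to 8.05 and Tarm1 -3.69 to 11.33 in the interaction. In the KO, leaving out a library can only keep or raise the count, so its range is no check. Depth limits genes under 3 counts, which stand for 0.0347 to 0.529 CPM.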
